A study of Mus musculus with 14 samples.

Results

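The genes described here were 9 transcription factors of heart muscle, namely Gata4, Gata6, Nkx2-5, Tbx5, Tbx20, Hand2, Mef2a, Mef2c and Mef2d, together with Rcan1, a target gene of calcineurin. The rule that chose them used their names and no measured value, but it was set with earlier results of these data known. Each was read from the probe set that carried its symbol alone and had the highest mean over the 14 arrays. All 10 genes were found among the 19937 genes of the array. Only Mef2d had another probe set with a single symbol. The 10 chosen probe sets lay between the 77.2 percentile (Tbx5) and the 97.1 percentile (Mef2a and Rcan1) of all probe sets by mean signal, and values are given as log2 expression throughout.

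The arrays measured RNA of the left ventricle from male mice 3 weeks after aortic banding (AB), in which a ligature narrows the ascending aorta and loads the ventricle with pressure, or after a Sham operation without the constriction. CXCR5-/- mice lack the chemokine receptor CXCR5 in all tissues, because a neomycin resistance gene took the place of its coding region in embryonic stem cells of another mouse strain. The line was then backcrossed to C57BL/6, and the wild type (WT) mice were C57BL/6. There were 4 CXCR5-/- AB, 4 WT AB, 3 CXCR5-/- Sham and 3 WT Sham hearts, each a separate array. Atria and right ventricle had been cut away, AB mice entered the study only above a set flow velocity across the band, and age is not given in the sources used here.

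GATA, NKX2, T-box, HAND and MEF2 proteins bind DNA together at the enhancers and promoters of heart muscle genes. They direct the formation of the heart in the embryo and remain expressed in adult muscle cells. Pressure overload activates the calcium-dependent phosphatase calcineurin, which strips phosphate from NFAT proteins and lets them enter the nucleus. There they act with GATA4 and MEF2. The Rcan1 gene has an internal start site that responds to NFAT, and the RCAN1 protein binds calcineurin and restrains it. Rcan1 is for this reason widely read as a marker of calcineurin activity in heart muscle.

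Of the series as a whole, the arrays had medians between 5.19 and 5.30 and pairwise correlations between 0.975 and 0.993. The Cxcr5 probe set was higher in the hearts labelled CXCR5-/- (3.85 to 4.47) than in those labelled WT (3.03 to 3.30), and the sources used here do not place this probe set relative to the exchanged coding sequence. Myl7, a myosin light chain of atrial muscle, ranged from 5.74 to 7.49 in CXCR5-/- AB and from 5.65 to 7.48 in WT AB hearts. It stood at 9.68 and 8.82 in CXCR5-/- Sham replicates 1 and 2 and at 9.09 in WT Sham replicate 1. In the remaining CXCR5-/- Sham heart it was 6.93, and in the remaining WT Sham hearts 6.10 and 6.85. The mean of 6 atrial markers was 7.003 in CXCR5-/- AB replicate 4, against 5.45 to 6.32 in the other AB hearts. This mean was 6.63 to 7.11 in the 3 Sham hearts of high Myl7 and 5.71 to 5.904 in the remaining Sham hearts. Bmp10, 1 of these markers, reached 6.78 in CXCR5-/- AB hearts and at most 3.32 in each other group. Later fits without these 3 Sham hearts kept CXCR5-/- AB replicate 4. Fibroblast markers rose with AB (9 of 10 genes in the mean of both genotypes, none lower), and their mean level was 9.37 to 9.62 in CXCR5-/- AB, against 8.24 to 8.53 in CXCR5-/- Sham, and 9.11 to 9.64 in WT AB, against 8.27 to 8.44 in WT Sham hearts. Of 10 markers of ventricular cardiomyocytes 4 fell (Myh6, Tnni3, Ttn and Pln) and none rose, with mean levels of 11.70 to 11.83 in CXCR5-/- AB, against 11.90 to 11.93 in CXCR5-/- Sham, and 11.78 to 11.79 in WT AB, against 11.89 to 11.92 in WT Sham hearts. Of 10 macrophage markers 8 rose and 1 fell (Cd163). These counts are limma calls (adjusted p under 0.05) in the mean of both genotypes. Of all genes 12.3% were called higher and 10.4% lower there. In WT hearts alone 6 fibroblast and 4 macrophage markers were called higher, and no cardiomyocyte marker was called. In CXCR5-/- hearts alone 9 fibroblast and 7 macrophage markers were called higher and 2 cardiomyocyte markers lower. The part of these shifts in the results below was not tested, and in whole tissue fewer cells of a type and less RNA per cell cannot be told apart.

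The first comparison asked which of these genes changed with pressure overload. Rcan1 rose 3.37-fold in CXCR5-/- and 3.18-fold in WT hearts, and Tbx5 fell to 0.594 of the Sham level in CXCR5-/- and to 0.617 of it in WT hearts. In CXCR5-/- hearts 2 of the 10 genes were called higher (Rcan1 and Tbx20) and 1 lower (Tbx5), where 14.1% of all 19937 genes were called in either direction (8.28% higher, 5.86% lower). In WT hearts 1 was called higher (Rcan1) and 3 lower (Tbx5, Gata6 and Mef2a), where 9.32% of all genes were called (5.1% higher, 4.22% lower). In the mean response of both genotypes 2 were called higher and 3 lower, where 22.8% of all genes were called (12.3% higher, 10.4% lower). A call is an adjusted p under 0.05 from limma with Benjamini-Hochberg adjustment over all genes. The median difference of the 10 genes was -0.09 in CXCR5-/- and -0.045 in WT hearts, beside -0.0146 over all genes in CXCR5-/- and 0.0111 over all genes in WT hearts. Read by overlap alone, AB lay above Sham for 2 of the 10 genes and below it for 2 in CXCR5-/- hearts (13.7% and 11.7% of all genes), and above for 1 and below for 3 in WT hearts (9.39% and 7.74% of all genes). The mean response rests on the same arrays as the responses within each genotype and is not a further sample.

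**Figure D1:**
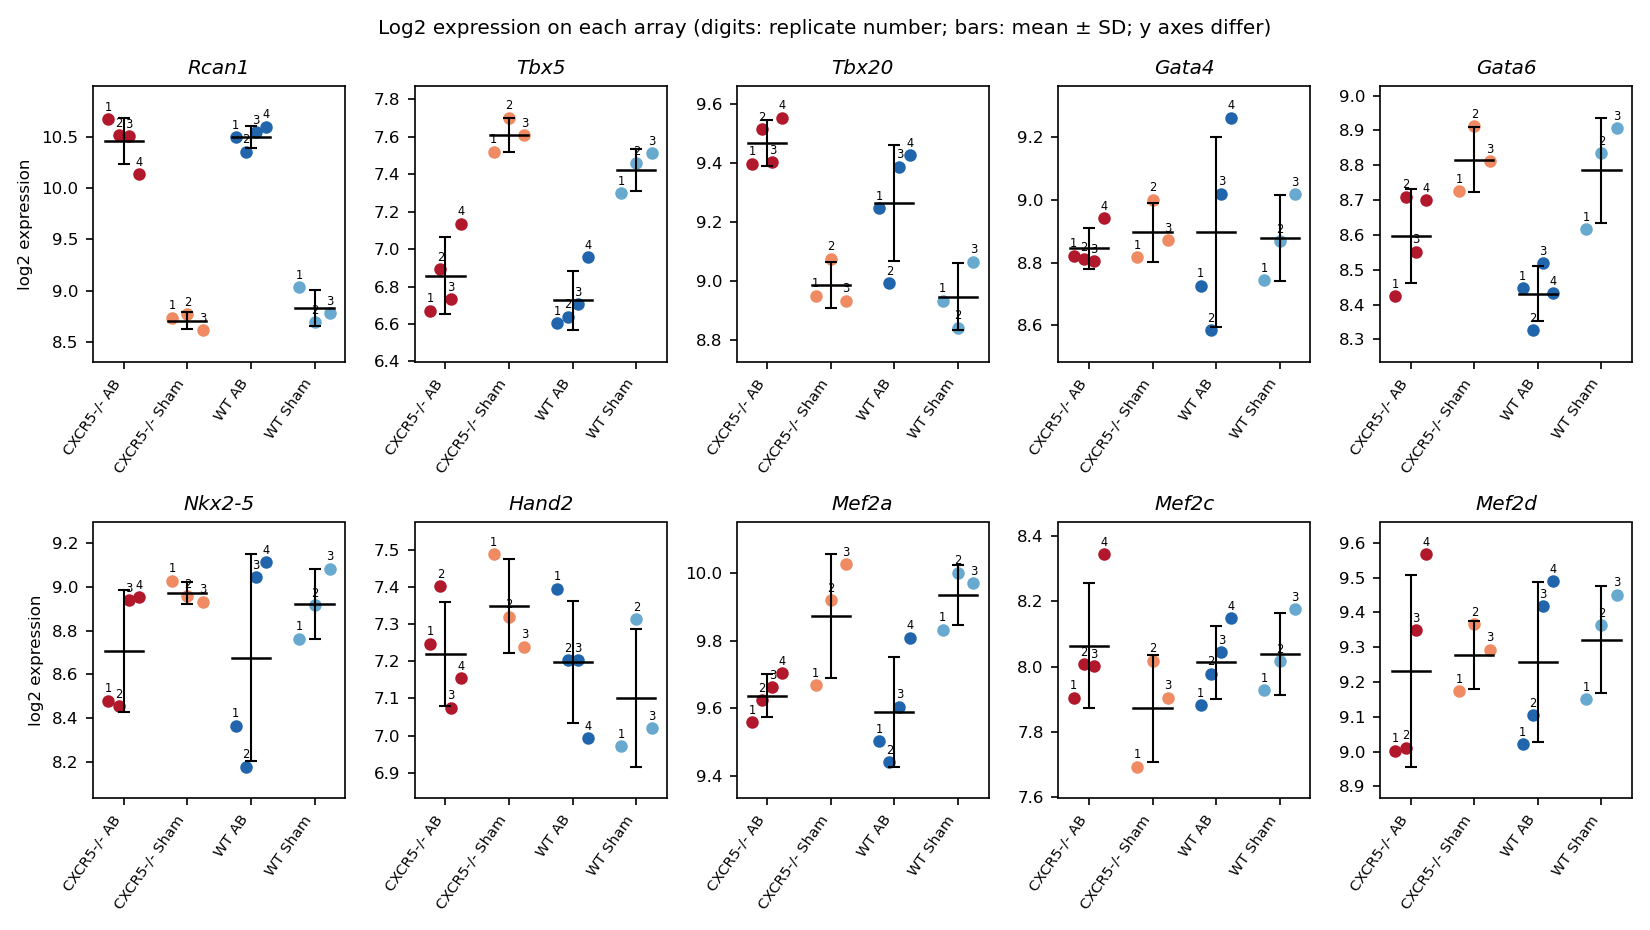
Log2 expression of the 10 genes on each of the 14 arrays (points with replicate numbers) with the mean and SD of each group, in panels with separate y axes. Rcan1 lies between 10.14 and 10.67 in all AB hearts and between 8.61 and 9.03 in all Sham hearts, Tbx5 lies lower in all AB than in all Sham hearts, and in the remaining panels AB and Sham hearts overlap when both genotypes are read together.

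Rcan1 was the member with the largest difference. It measured 10.67, 10.51, 10.50 and 10.14 in CXCR5-/- AB hearts, against 8.73, 8.77 and 8.61 in CXCR5-/- Sham hearts. The WT AB hearts measured 10.50, 10.35, 10.55 and 10.60, against 9.03, 8.69 and 8.78 in WT Sham hearts. Every AB heart lay at least a full log2 unit above every Sham heart. The lowest AB value was CXCR5-/- AB replicate 4 and the highest Sham value was WT Sham replicate 1. The difference was 1.75 (SE 0.12, adjusted p = 7.72e-08) in CXCR5-/- and 1.67 (SE 0.12, adjusted p = 2.12e-07) in WT hearts. By size it ranked 33rd of the 1650 genes called higher in CXCR5-/- hearts and 25th of the 1016 called higher in WT hearts. The mean difference was 1.71 (SE 0.08, adjusted p = 5.17e-10).

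RefSeq places 2 starts of Rcan1 in mouse build GRCm38.p6, both on the minus strand of chromosome 16. Their windows, from 250 bases before to 50 bases after the start, are shown because the internal start is the one known to respond to NFAT. Capitals mark matches to the NFAT core GGAAA on either strand.
Rcan1 internal start, chr16:92400029-92400328: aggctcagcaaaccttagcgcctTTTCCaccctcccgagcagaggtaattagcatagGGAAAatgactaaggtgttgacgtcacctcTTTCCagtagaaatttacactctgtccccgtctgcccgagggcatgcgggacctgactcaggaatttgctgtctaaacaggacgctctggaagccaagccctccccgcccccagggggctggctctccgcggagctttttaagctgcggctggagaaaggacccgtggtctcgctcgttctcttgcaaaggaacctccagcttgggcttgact
Rcan1 upstream start, chr16:92466120-92466419: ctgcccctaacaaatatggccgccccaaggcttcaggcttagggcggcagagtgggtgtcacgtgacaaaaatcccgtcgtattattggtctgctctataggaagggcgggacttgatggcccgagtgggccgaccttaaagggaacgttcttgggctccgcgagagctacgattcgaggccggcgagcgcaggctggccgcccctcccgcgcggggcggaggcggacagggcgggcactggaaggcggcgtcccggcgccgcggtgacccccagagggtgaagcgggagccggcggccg
The internal window held 3 matches, 1 of them on the strand of the gene, and they began at -227, -193 and -163, counted in bases from the start. The upstream window held none. The core is short: it was present in 61.3% of all 32817 windows of this length, and 9.41% held 3 or more. A match describes letters and is not a bound site. The chosen probe set is annotated to 11 transcript accessions, and its signal is not separated here into the internal and the upstream start.

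The T-box factors moved in opposite directions. Tbx5, which is required for the chambers and the conduction system and is mutated in Holt-Oram syndrome in humans, measured 6.67, 6.89, 6.73 and 7.14 in CXCR5-/- AB hearts, against 7.52, 7.70 and 7.61 in CXCR5-/- Sham hearts. The WT AB hearts had 6.60, 6.64, 6.71 and 6.96, against 7.30, 7.46 and 7.51 in WT Sham hearts. All 8 AB hearts were below all 6 Sham hearts, and replicate 4 was the highest AB heart in each genotype. Tbx5 fell by 0.75 (SE 0.12, adjusted p = 2.79e-04) in CXCR5-/- hearts and by 0.70 (SE 0.12, adjusted p = 9.15e-04) in WT hearts. It ranked 188th of 1168 genes called lower in CXCR5-/- and 181st of 842 in WT hearts. Rcan1 and Tbx5 were the 1 gene higher and the 1 gene lower of the 10 for which AB and Sham hearts did not overlap over both genotypes, where 5.45% of all genes were higher and 3.96% lower in this way.

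Tbx20, a T-box factor that adult cardiomyocytes need to keep their contractile function, measured 9.40, 9.52, 9.40 and 9.55 in CXCR5-/- AB hearts, against 8.95, 9.08 and 8.93 in CXCR5-/- Sham hearts. In WT AB hearts it measured 9.25, 8.99, 9.39 and 9.43, against 8.93, 8.84 and 9.07 in WT Sham hearts. The groups did not overlap in CXCR5-/- hearts. In WT hearts AB replicate 2 lay among the Sham values. The difference was 0.48 (SE 0.11, adjusted p = 0.00446) in CXCR5-/- hearts, a rank of 1023rd among the 1650 genes called higher. In WT hearts it was 0.32 (SE 0.11, adjusted p = 0.0715), which did not pass. It passed in the mean response, at 0.40 (SE 0.07, adjusted p = 6.92e-04). Without WT AB replicate 2 the WT difference was 0.41 with an adjusted p of 0.0138. Without the 3 Sham hearts of high Myl7, an alternative added after seeing the data, the CXCR5-/- difference was 0.54 and its adjusted p 0.0966, and then a single CXCR5-/- Sham heart remained.

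Of the GATA factors, 1 was called. Gata6, which shares targets with Gata4 in the hypertrophic response, measured 8.42, 8.71, 8.55 and 8.70 in CXCR5-/- AB hearts, against 8.73, 8.91 and 8.81 in CXCR5-/- Sham hearts. Its WT AB values were 8.45, 8.33, 8.52 and 8.43, against 8.62, 8.83 and 8.91 in WT Sham hearts. AB lay below Sham without overlap in each genotype. The gap in CXCR5-/- hearts, between AB replicate 2 and Sham replicate 1, was narrow. Gata6 fell by 0.35 (SE 0.10, adjusted p = 0.0319) in WT hearts. The difference in CXCR5-/- hearts was -0.22 (SE 0.10, adjusted p = 0.172) and did not pass, and the mean difference of -0.29 did (SE 0.07, adjusted p = 0.00601). The WT call was lost without WT AB replicate 1 (adjusted p = 0.061), WT AB replicate 2 (0.0829), WT Sham replicate 2 (0.129) or WT Sham replicate 3 (0.168), and in a fit of the WT arrays alone (0.0693).

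Gata4, the GATA factor on which NFAT signalling converges, measured 8.82, 8.81, 8.80 and 8.94 in CXCR5-/- AB hearts, against 8.82, 8.9995 and 8.87 in CXCR5-/- Sham hearts. In WT AB hearts it measured 8.73, 8.59, 9.02 and 9.26, against 8.74, 8.87 and 9.02 in WT Sham hearts. AB and Sham overlapped in both genotypes, and the WT AB hearts spanned the values of all other groups. The difference was -0.05 (95% confidence interval -0.32 to 0.22) in CXCR5-/- and 0.02 (-0.25 to 0.29) in WT hearts, with an adjusted p of 0.865 in CXCR5-/- and 0.959 in WT hearts.

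Nkx2-5 encodes a homeodomain factor that partners GATA4 and TBX5. It measured 8.48, 8.45, 8.94 and 8.96 in CXCR5-/- AB hearts, against 9.03, 8.96 and 8.93 in CXCR5-/- Sham hearts. Its WT AB values were 8.36, 8.18, 9.05 and 9.11, against 8.76, 8.92 and 9.08 in WT Sham hearts. In both genotypes AB replicates 1 and 2 lay below every Sham heart, while AB replicates 3 and 4 lay within the Sham values or just above them. The SD was 0.28 in CXCR5-/- AB and 0.47 in WT AB hearts, against 0.05 in CXCR5-/- Sham and 0.16 in WT Sham hearts. The difference was -0.27 (SE 0.19, adjusted p = 0.448) in CXCR5-/- and -0.25 (SE 0.19, adjusted p = 0.539) in WT hearts. The mean difference was -0.26 (95% confidence interval -0.55 to 0.03, adjusted p = 0.221).

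The same hearts stood apart for Mef2d. AB replicates 1 and 2 averaged 9.01 in CXCR5-/- and 9.06 in WT hearts, and AB replicates 3 and 4 averaged 9.46 in CXCR5-/- and 9.45 in WT hearts. For Nkx2-5 replicates 1 and 2 averaged 8.47 in CXCR5-/- and 8.27 in WT hearts, and replicates 3 and 4 averaged 8.95 in CXCR5-/- and 9.08 in WT hearts. For Gata4 replicates 1 and 2 averaged 8.82 in CXCR5-/- and 8.66 in WT hearts, and replicates 3 and 4 averaged 8.87 in CXCR5-/- and 9.14 in WT hearts. In CXCR5-/- AB hearts Gata4 was not split in this way. Replicate 3 (8.80) was the lowest there and only replicate 4 (8.94) lay higher than replicates 1 and 2. Mef2a was split too: replicates 1 and 2 averaged 9.59 in CXCR5-/- and 9.47 in WT hearts, and replicates 3 and 4 averaged 9.68 and 9.71. Hand2 averages ran the other way (7.32 to 7.11 in CXCR5-/- and 7.30 to 7.10 in WT hearts). Myl7 and the atrial, smooth muscle and endothelial marker means were also higher in replicates 3 and 4 of both genotypes. The macrophage mean was not, and the part of these markers was not tested. This split of the AB hearts was made after their values were seen, it has no test, and what the replicate numbers stand for is not given in the sources used here.

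Hand2, a basic helix-loop-helix factor of the developing ventricle, measured 7.25, 7.40, 7.07 and 7.15 in CXCR5-/- AB hearts, against 7.49, 7.32 and 7.24 in CXCR5-/- Sham hearts. WT AB hearts had 7.39, 7.20, 7.20 and 6.99, against 6.97, 7.31 and 7.02 in WT Sham hearts. All 4 groups overlapped. The difference was -0.13 (95% confidence interval -0.37 to 0.11) in CXCR5-/- and 0.10 (-0.15 to 0.34) in WT hearts.

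MEF2 proteins bind A/T-rich sites in muscle genes and are held inactive by class II histone deacetylases until calcium-dependent kinases release them. Mef2a, the form that prevails in the adult heart, measured 9.56, 9.62, 9.66 and 9.70 in CXCR5-/- AB hearts, against 9.67, 9.92 and 10.03 in CXCR5-/- Sham hearts. Its WT AB values were 9.50, 9.44, 9.60 and 9.81, against 9.83, 10.002 and 9.97 in WT Sham hearts. WT groups did not overlap, although AB replicate 4 lay just under Sham replicate 1, and CXCR5-/- groups overlapped through Sham replicate 1. The difference was -0.23 (SE 0.11, adjusted p = 0.169) in CXCR5-/- hearts. Mef2a fell by 0.35 (SE 0.11, adjusted p = 0.0479) in WT hearts and by 0.29 (SE 0.07, adjusted p = 0.00838) in the mean response. The WT call is at the edge of the threshold: it was lost when any 1 of 11 of the 14 arrays was left out (adjusted p up to 0.182) and held without CXCR5-/- Sham replicate 1, WT Sham replicate 1 or WT AB replicate 4. In the mean response the call held whichever array was left out.

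The start window of Mef2a is shown because it holds a match to the MEF2 consensus at the start itself. In build GRCm38.p6 it lies on the minus strand of chromosome 7, and capitals mark the match to CTANNNNTAG.
Mef2a start, chr7:67372809-67373108: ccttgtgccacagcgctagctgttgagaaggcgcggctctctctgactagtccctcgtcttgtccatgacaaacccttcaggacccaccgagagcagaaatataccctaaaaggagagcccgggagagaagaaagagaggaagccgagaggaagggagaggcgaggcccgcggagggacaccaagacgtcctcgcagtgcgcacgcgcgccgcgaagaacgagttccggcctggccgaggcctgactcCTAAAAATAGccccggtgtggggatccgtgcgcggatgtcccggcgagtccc
The match begins 2 bases before the start (at -2), and 3.69% of all windows hold 1 or more on either strand. It is a description of the letters and says nothing of binding in these hearts.

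Mef2c, the form that the embryonic heart cannot do without, measured 7.90, 8.01, 8.0008 and 8.34 in CXCR5-/- AB hearts, against 7.69, 8.02 and 7.90 in CXCR5-/- Sham hearts. In WT AB hearts it measured 7.88, 7.98, 8.04 and 8.15, against 7.93, 8.02 and 8.18 in WT Sham hearts. The groups overlapped in both genotypes, and the differences of 0.19 (95% confidence interval -0.05 to 0.43) in CXCR5-/- and -0.03 (-0.27 to 0.22) in WT hearts did not pass. Mef2d, which in adult mouse heart takes part in the hypertrophic response to pressure, measured 9.002, 9.01, 9.35 and 9.57 in CXCR5-/- AB hearts, against 9.17, 9.37 and 9.29 in CXCR5-/- Sham hearts. The WT AB hearts had 9.02, 9.10, 9.42 and 9.49, against 9.15, 9.36 and 9.45 in WT Sham hearts. Its AB values lay on both sides of the Sham values, and the differences were -0.04 (-0.35 to 0.26) in CXCR5-/- and -0.06 (-0.37 to 0.24) in WT hearts. The second probe set of Mef2d, with a mean of 5.63 at the 56.1 percentile, measured 5.41 to 5.58 in CXCR5-/- AB and 5.28 to 5.73 in CXCR5-/- Sham hearts, and 5.47 to 5.88 in WT AB and 5.66 to 5.99 in WT Sham hearts. The split among AB hearts seen with the first probe set was not seen with it: in WT AB hearts replicates 1 and 2 were the higher ones.

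**Figure D2:**
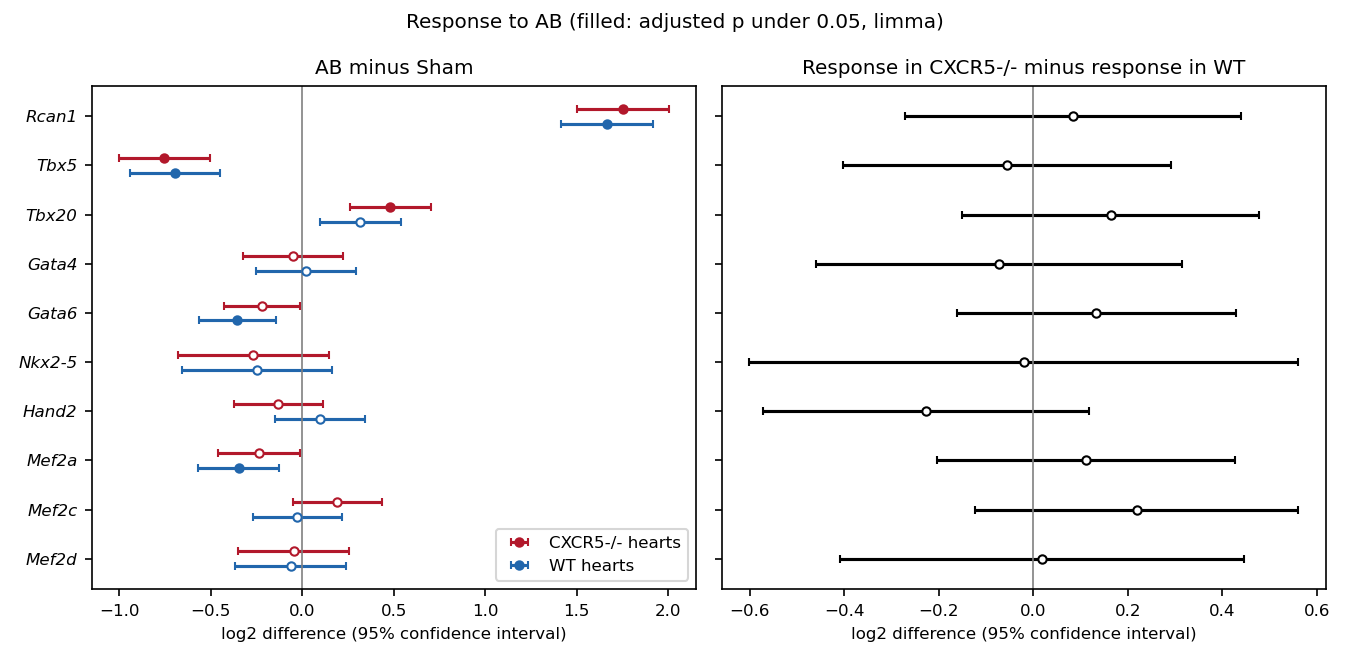
Log2 difference between AB and Sham hearts of each gene in CXCR5-/- and WT hearts (left), and the difference between these responses, CXCR5-/- minus WT (right), with 95% confidence intervals from limma over 14 arrays. Filled points have an adjusted p under 0.05. Rcan1 lies near 1.7 and Tbx5 near -0.7 in both genotypes, and every interval on the right includes 0.

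The second comparison asked whether loss of CXCR5 altered these genes. None of the 10 was called in the difference of the AB response, CXCR5-/- minus WT, where 0% of all genes were called (smallest adjusted p of any gene 0.804, and 2.88% at an unadjusted p under 0.05). None of the 10 had an unadjusted p under 0.05. The intervals bound what could have gone unseen. For Rcan1 the responses differed by 0.08 (95% confidence interval -0.27 to 0.44), for Tbx5 by -0.06 (-0.40 to 0.29) and for Tbx20 by 0.16 (-0.15 to 0.48). The largest differences of the 10 were those of Hand2, at -0.23 (-0.57 to 0.12), and Mef2c, at 0.22 (-0.12 to 0.56). The widest interval was that of Nkx2-5, at -0.02 (-0.60 to 0.56).

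Between CXCR5-/- AB and WT AB hearts none of the 10 was called and 0.0451% of all genes were. With the replicate number as a block 21 genes were called in place of 9, and again none of the 10. For none of the 10 were these groups free of overlap, where 3.12% of all genes did not overlap in either direction. The differences ran from -0.05 (Gata4) to 0.20 (Tbx20), and the groups of Tbx20 overlapped: the unadjusted p was 0.0515 and the adjusted p 0.841. Tbx20 lies on chromosome 9, as Cxcr5 does, and an effect of the knockout and one of stem cell strain sequence near Cxcr5 cannot be told apart there. Between CXCR5-/- Sham and WT Sham hearts none of the 10 was called and 0.0401% of all genes were. The differences ran from -0.17 (Mef2c) to 0.25 (Hand2, unadjusted p 0.0614). Tbx5 was the 1 gene of the 10 whose Sham groups did not overlap (7.52 to 7.70 in CXCR5-/- Sham, against 7.30 to 7.51 in WT Sham hearts, a difference of 0.19 with an unadjusted p of 0.152), where 6.85% of all genes did not overlap in either direction.

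Read over all 4 groups, Rcan1 had its means in the order WT AB (10.50 ± 0.11), CXCR5-/- AB (10.46 ± 0.23), WT Sham (8.83 ± 0.18) and CXCR5-/- Sham (8.71 ± 0.08; SD, n = 4 AB and 3 Sham). Neighbours of the same operation overlapped. Tbx5 had the order CXCR5-/- Sham (7.61 ± 0.09), WT Sham (7.42 ± 0.11), CXCR5-/- AB (6.86 ± 0.21) and WT AB (6.73 ± 0.16), with the largest step between WT Sham and CXCR5-/- AB. Its AB groups overlapped, and its Sham groups did not but were not called apart. Tbx20 had the order CXCR5-/- AB (9.47 ± 0.08), WT AB (9.26 ± 0.20), CXCR5-/- Sham (8.99 ± 0.08) and WT Sham (8.95 ± 0.11), and each neighbour overlapped the next.

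The 7 genes for which RefSeq start windows were matched (Mef2a, Mef2c, Mef2d, Nkx2-5, Tbx20, Hand2 and Rcan1) had 10 windows between them. Gata4, Gata6 and Tbx5 were not among those matched. The internal Rcan1 window held a T-box core, AGGTGT, at -181, between the NFAT cores and not overlapping them, and this core is present in 13.7% of all windows. The first Mef2c window held 5 NFAT cores, the most of any of the 10 and a number reached by 0.728% of all windows, and Mef2c was not called. The Tbx20 window held none of the motifs searched. Besides the NFAT, MEF2 and T-box motifs, 2 others were searched on both strands. The GATA motif was AGATAA, which 11.2% of all windows hold and which the Hand2 window holds at -172. The NKX2 motif was taken as AAGTG, and it is present in 46.4% of all windows.

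**Figure D3:**
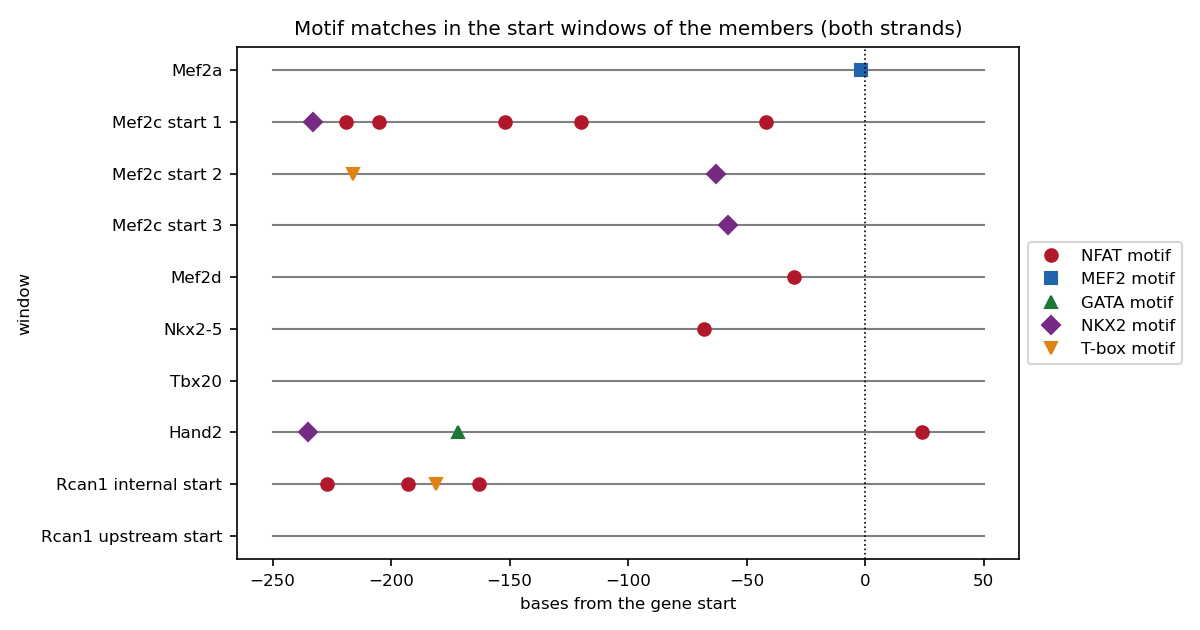
Positions of 5 motifs in the start windows of 7 genes (x axis, bases from the gene start, dotted line; each row is 1 window of 300 bases, and matches on both strands are shown). The NFAT cores of Rcan1 fall in the internal window and none in the upstream one, and the MEF2 match of Mef2a lies at the start.

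How the genes varied together depended on whether the groups were taken into account. The following are descriptions over 14 arrays that share their groups, and carry no test. Over the arrays as measured, Rcan1 and Tbx5 had a Pearson correlation of -0.943, Rcan1 and Gata6 -0.809, and Gata6 and Tbx5 0.886. After the mean of each group was subtracted these were -0.509, -0.470 and 0.690. Within groups the transcription factors other than Hand2 varied in the same direction, with 0.907 for Mef2c and Tbx5, 0.862 for Mef2d and Nkx2-5, 0.849 for Gata4 and Tbx20, and 0.847 for Mef2c and Mef2d. Hand2 was the exception: its correlations with the other 9 genes within groups lay between -0.539 (Mef2d) and 0.144 (Gata6). Mef2c and Tbx5 had a correlation of -0.027 as measured.

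**Figure D4:**
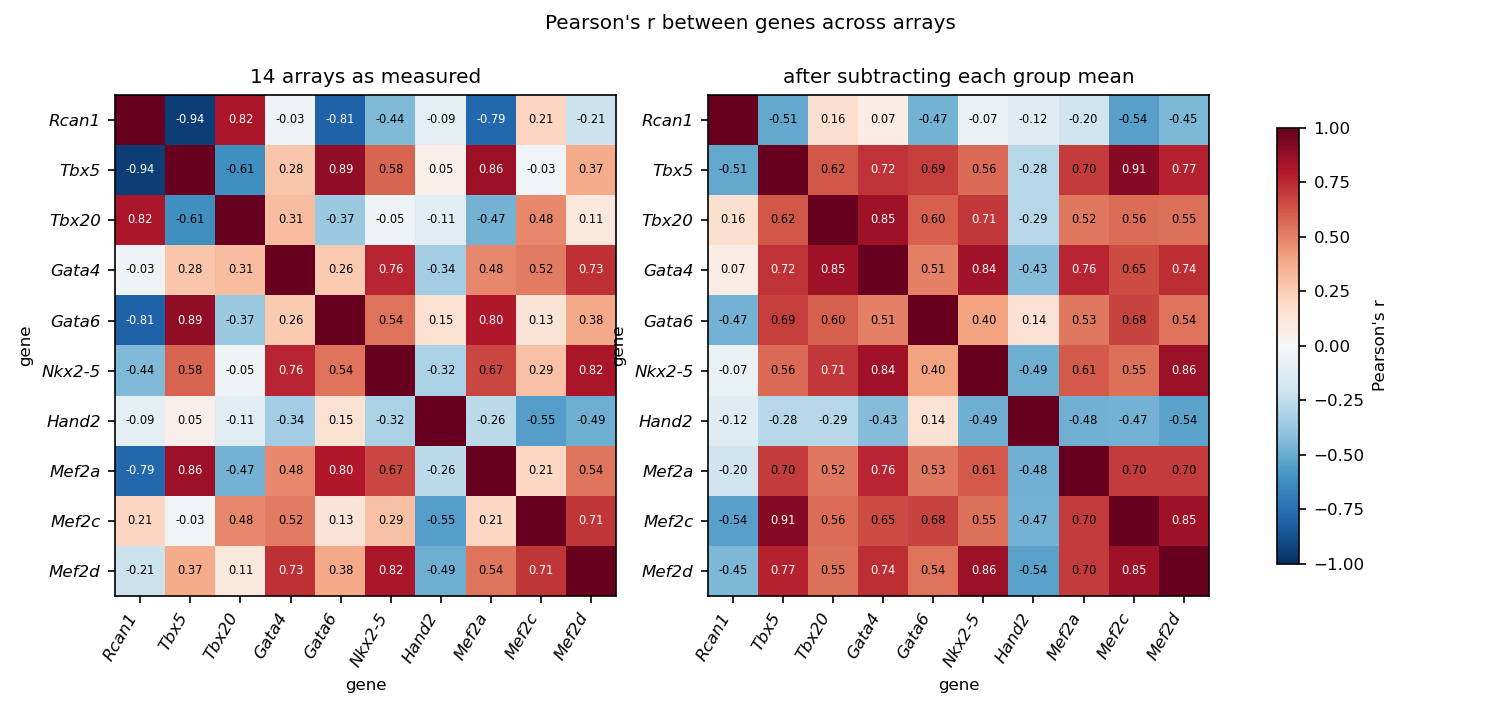
Pearson's r between each pair of the 10 genes over the 14 arrays as measured (left) and after subtraction of each group mean (right). Red squares prevail among the transcription factors on the right, Hand2 apart. The Rcan1 squares with Tbx5 (-0.94 to -0.51), Gata6, Mef2a and Tbx20 are paler on the right than on the left. Those of Rcan1 with Mef2c (0.21 to -0.54) and Mef2d (-0.21 to -0.45) are deeper.

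Levels of cell type markers moved along with some of the genes. Over the arrays, Rcan1 correlated with the mean of the fibroblast list at 0.966, of the macrophage list at 0.917, of the epicardial list at 0.731 and of the ventricular cardiomyocyte list at -0.895. Within groups these were 0.583, 0.208, 0.742 and 0.068, the epicardial list being the highest. Tbx5 correlated over the arrays with the macrophage list at -0.881, the fibroblast list at -0.846 and the ventricular cardiomyocyte list at 0.827, and within groups these were -0.202, 0.183 and 0.008. Tbx20 had 0.886 with the fibroblast list and 0.835 with the endocardial and valve list over the arrays, and 0.489 and 0.748 within groups. Hand2 had -0.849 with the endothelial list and 0.452 with the erythroid and blood list over the arrays, and -0.817 and 0.726 within groups. The part of these cell types in the values was not tested.

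Among 9601 genes with a mean above that of the median gene, those most like each member over the 14 arrays were taken by Pearson's r. This pool left out some gene families and all symbols that begin with a letter from A to E and a digit, C1qa and C1qb among them. For Rcan1 they were Cilp (0.991), a matrix protein gene, and Emp1 (0.988), an epithelial membrane protein gene. For Tbx5 they were Paqr9 (0.974) and Sox6 (0.958), a transcription factor of muscle fibre type. For Tbx20 they were Sh3bp2 (0.948) and Sulf2 (0.945), and for Mef2a Rab11fip2 (0.952) and Nrp1 (0.945), a coreceptor for VEGF and semaphorins. Gata6 had Arhgap26 (0.927) and Elp3 (0.913). The genes without a call also had close neighbours: Mef2d had Deaf1 (0.975) and Atp1b2 (0.947), Nkx2-5 had Slc25a38 (0.952) and Tmub2 (0.950), and Gata4 had Gtf2ird1 (0.925) and Pcnx3 (0.924). The lowest were Mef2c, with Runx1t1 (0.873) and Smurf1 (0.865), and Hand2, with Cebpb (0.780) and Trnp1 (0.761).

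The other genes of the calcineurin pathway were given by a list of 20 that covers its subunits, the NFAT factors, the relatives of Rcan1 and proteins that anchor or restrain it. In the mean response 2 were called higher and 1 lower, where 22.8% of all genes were called. In CXCR5-/- hearts 1 (Ppp3cc) was called, where 14.1% of all genes were, and this call was lost in 4 of the 14 fits that left out 1 array (adjusted p up to 0.1). None was called in WT hearts (6 at an unadjusted p under 0.05), where 9.32% of all genes were. The median difference was 0.01, beside -8e-04 over all genes. Cib1, which anchors calcineurin at the sarcolemma, rose by 0.44 (SE 0.11, adjusted p = 0.00508) and Ppp3cc, a catalytic subunit, by 0.31 (SE 0.08, adjusted p = 0.00568). Ppp3ca, another catalytic subunit, fell by 0.27 (SE 0.08, adjusted p = 0.0224). Rcan2 and Rcan3, the relatives of Rcan1, had differences of -0.04 (95% confidence interval -0.19 to 0.10) and 0.05 (-0.08 to 0.17) and were not called. Without the 3 Sham hearts of high Myl7, Ppp3cc was 0.23 with an adjusted p of 0.165, and 1 gene of the list was called higher (Cib1) and 3 lower (Ppp3ca, Ppp3cb and Dyrk1a). The call of Ppp3ca was lost without CXCR5-/- Sham replicate 2 or 3 or WT Sham replicate 2 or 3 (adjusted p 0.0595 to 0.0685).

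**Figure D5:**
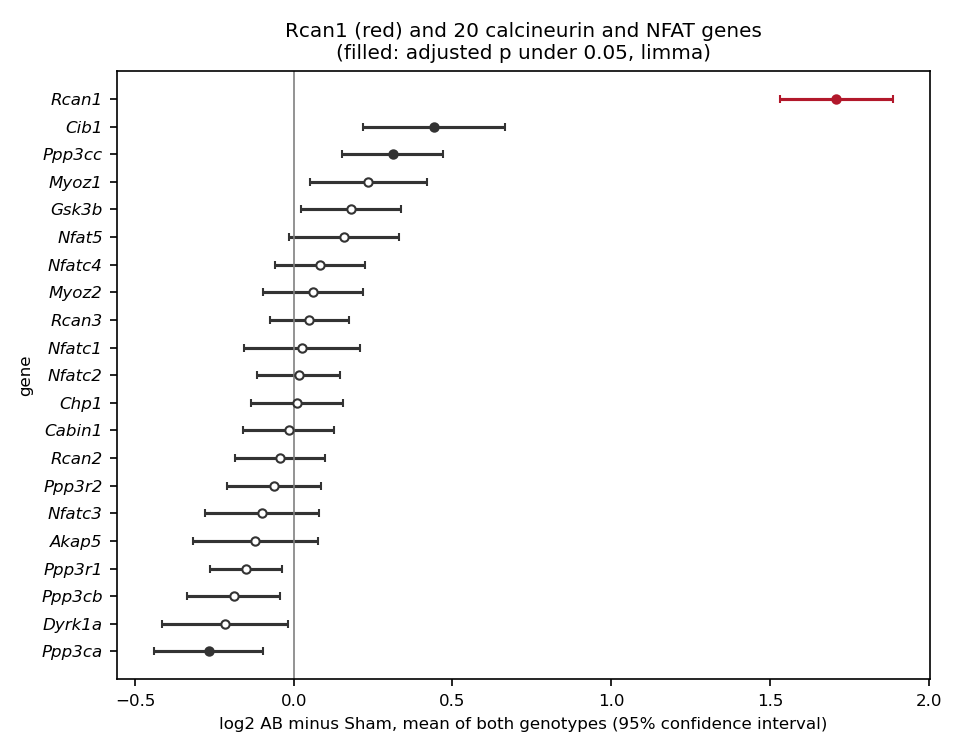
Log2 difference between AB and Sham hearts, mean of both genotypes, of Rcan1 (red) and 20 further calcineurin and NFAT genes, with 95% confidence intervals. Filled points have an adjusted p under 0.05. Rcan1 lies at 1.71, and the other genes lie between -0.27 and 0.44.

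Of 20 regulators of MEF2, namely class II histone deacetylases, calcium-dependent kinases, the p38 and ERK5 pathways and coactivators, 7 were called lower and 1 higher in the mean response, where 10.4% of all genes were called lower and 12.3% higher. The median was -0.13, beside -8e-04 over all genes. Camk2a fell by 0.60 (SE 0.07, adjusted p = 6.55e-06) and Hdac4, which CaM kinases export from the nucleus, by 0.53 (SE 0.10, adjusted p = 5.62e-04). Mapk14, the p38 alpha kinase, fell by 0.42, Hdac5 by 0.34, Map2k5 by 0.27 and Map2k6 by 0.48 (adjusted p 0.00209 to 0.011). Camk4 was the gene called higher, at 0.28, and Ncoa2 was the remaining gene called lower, both named after their values were seen. Within CXCR5-/- hearts 5 were lower (Camk2a, Hdac4, Mapk14, Hdac5 and Map2k5) and within WT hearts 4 (Camk2a, Hdac4, Mapk14 and Map2k6), where 5.86% of all genes in CXCR5-/- and 4.22% in WT hearts were called lower. Of these, Camk2a kept both calls whichever of the 14 arrays was left out. Hdac4 lost its call in 1 such fit in CXCR5-/- and 5 in WT hearts, Mapk14 in 7 in CXCR5-/- and 4 in WT hearts, Hdac5 in 6 and Map2k5 in 3 in CXCR5-/- hearts, and Map2k6 in 12 in WT hearts (adjusted p up to 0.163 for Map2k6 and 0.216 for Mapk14). Without the 3 Sham hearts of high Myl7, 5 were lower (Hdac4, Camk2a, Mapk14, Map2k5 and Ncoa2) and none higher in the mean response, and Hdac5 (adjusted p = 0.0569) and Map2k6 (0.151) were lost.

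Of 31 further cardiac transcription factors 29 were measured, and 4 were called higher and 4 lower in the mean response, with a median of -0.05. Of all genes 12.3% were called higher and 10.4% lower, so the share of this list is near that of all genes in each direction. Hopx, a homeodomain protein that binds no DNA and antagonises serum response factor, fell by 0.97 (SE 0.10, adjusted p = 1.18e-06), a larger estimate than that of any of the 9 transcription factors. It fell in each genotype, by 1.01 in CXCR5-/- and 0.93 in WT hearts. Tbx18, a T-box factor of epicardium and mural cells, rose by 0.55 (SE 0.07, adjusted p = 1.16e-05) and Foxc2, a forkhead factor of vessels, by 0.53 (SE 0.09, adjusted p = 1.94e-04). Tbx3, a T-box repressor of the conduction system, fell by 0.34 (adjusted p = 0.00122). The cofactors of serum response factor diverged: Myocd fell by 0.29 (adjusted p = 0.013) and Mrtfa rose by 0.30 (adjusted p = 0.0145). Srf itself, also higher, and Irx1, lower, were the remaining calls, named after their values were seen. Without the 3 Sham hearts of high Myl7, 2 were higher (Tbx18 and Foxc2) and 3 lower (Hopx, Tbx3 and Myocd), and Mrtfa had an adjusted p of 0.0806. Of 6 epicardial markers 4 were also called higher in the mean response. None of them was called in either genotype alone, where Tbx18 was called in both. The median difference of the 6 markers was 0.36 in CXCR5-/- and 0.51 in WT hearts, beside 0.60 and 0.50 for Tbx18. At an unadjusted p under 0.05 from limma, 2 of the 6 passed in CXCR5-/- and 4 in WT hearts. The part of epicardial cells was not tested.

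Of 28 genes that these factors are known to drive in heart muscle 26 were measured, and 7 were called higher and 6 lower in the mean response, with a median of 0.03, where 12.3% of all genes were called higher and 10.4% lower with a median of -8e-04. The 6 higher ones with the smallest p were Myh7, the beta myosin heavy chain, Nppb, the B-type natriuretic peptide, Nppa, the atrial natriuretic peptide and a target of GATA4, NKX2-5 and TBX5, Acta1, the skeletal alpha actin, Xirp2, a MEF2A target at the intercalated disc, and Ankrd1, a cardiac ankyrin repeat protein. In CXCR5-/- hearts Myh7 rose by 2.52, Nppb by 2.13, Nppa by 1.39, Acta1 by 1.35, Xirp2 by 1.41 and Ankrd1 by 0.81. In WT hearts Myh7 rose by 1.93, Nppb by 1.76, Nppa by 1.78, Acta1 by 1.52, Xirp2 by 1.18 and Ankrd1 by 0.61. Xirp1 was the other gene called higher, and the 6 called lower were Myh6, Tnni3, Atp2a2, Ryr2, Kcnj3 and Ckm, all named after their values were seen. The 6 genes with values passed in both genotypes (adjusted p 1.09e-04 or lower). None of the 26 differed between the genotypes in its response at the threshold, and 1, Myh7, had an unadjusted p under 0.05. Several of these genes also serve as markers of ventricular cardiomyocytes.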

How the data were processed

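Left ventricular RNA of 14 mice was hybridised to Affymetrix mouse ST 1.0 arrays. Per the labels and the study's methods, the authors summarised probe signals by robust multi-array average (RMA) and deposited log2 values per probe set; these were used as deposited. Of 34760 probe sets 21640 had 1 gene symbol in GEO's platform annotation, 1321 several and 11799 none listed; 21553 of the former were found in the RefSeq table. For each of 19937 genes the probe set with the highest mean was kept. Arrays carry no counts, so their number limits the precision.

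Groups came from the labels, and mice within a group were replicates. Limma 3.58.1 in R 4.3.3 fitted 1 mean per group over the 14 arrays (10 residual and 7.13 prior degrees of freedom), with Benjamini-Hochberg adjustment over all genes and an adjusted p under 0.05 as a call. The study's methods name significance analysis of microarrays, which was run as an alternative, and the script was tested on simulated data. The genes and lists were chosen with earlier results of these data known. Named were the 10 genes, up to 6 called genes of each list by p in the mean response, 2 neighbours by correlation, Cxcr5 and Myl7. For neighbours, predicted genes, olfactory and vomeronasal receptors and small RNAs were passed over. A filter on symbols also passed over all that begin with a letter from A to E and a digit. Start windows were RefSeq's (GRCm38.p6), and no protein sequence was used here.

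Replicate numbers are shared between groups. Deviations from the group means of same-numbered CXCR5-/- AB and WT AB arrays correlated at 0.125, 0.22, 0.157 and 0.185 over genes. The block value is therefore given beside that comparison, although no stated design pairs these groups. The same-numbered WT AB array was the best match for replicate 1 but not for replicates 2, 3 and 4. Pairing is thus not shown. Other pairs of groups reached 0.026 or less for at least 1 number. Of these, CXCR5-/- Sham with WT Sham, and WT AB with WT Sham, had the same number as best match for replicates 1 and 3.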

Additional observations from a re-analysis of the deposited data

Results flagged for a closer look

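Of the 31 genes checked in the AB groups (62 groups of 4 hearts), 1 had a value set apart from the rest of its group. Gata4 was 8.94 in CXCR5-/- AB replicate 4, where the other CXCR5-/- AB hearts lay between 8.80 and 8.82, so that the gap took 0.868 of the range. Chance alone sets apart about 1 in 20 groups. The WT AB hearts spanned a wider range of Gata4, from 8.59 to 9.26.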

How the results depend on the processing

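Rcan1 and Tbx5 kept their AB calls in each genotype and in the mean response under all alternatives and whichever array was left out: the differences then ran from 1.68 to 1.86 in CXCR5-/- and 1.59 to 1.77 in WT hearts for Rcan1 (highest adjusted p 1.47e-04 in CXCR5-/- and 1.72e-05 in WT hearts), and from -0.84 to -0.69 in CXCR5-/- and -0.78 to -0.65 in WT hearts for Tbx5 (0.0315 in CXCR5-/- and 0.00878 in WT hearts). Tbx20, Gata6 and Mef2a kept theirs in the mean response (adjusted p at most 0.00335, 0.022 and 0.0332 with an array left out). Of 680 refits of the 10 genes other than leaving out an array, 642 kept direction and call, 7 lost a call, 5 gained one and 26 changed sign, all 26 uncalled. Besides those given with each gene, the WT call of Mef2a was lost under quantile normalization (adjusted p 0.0686), median scaling (0.0505), a fit of the WT arrays alone (0.0964), the atrial markers as a covariate (0.0605) and significance analysis of microarrays (0.0517). Array weights added Tbx20 in WT hearts (0.36, adjusted p 0.0155) and Gata6 and Mef2a in CXCR5-/- hearts (0.0371 and 0.00673). The weight was 3.91 for CXCR5-/- Sham replicate 3, against 0.509 and 1.09 for replicates 1 and 2. It was 3.39 for WT Sham replicate 2, against 0.504 and 0.756 for replicates 1 and 3. With array weights each Sham mean thus rests mostly on 1 heart. The cause of these changes of call was not tested.

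Genes called in CXCR5-/- hearts after AB numbered 2818, with array weights 4769 and without the 3 Sham arrays of high Myl7 (chosen after seeing the data, fewer samples) 844. In WT hearts they numbered 1858 and with array weights 3408, and with 1 array left out 1002 to 2120, the lowest being without WT Sham replicate 3 (1002) or 2 (1025). Between CXCR5-/- AB and WT AB hearts the 9 became 4 with only these groups, 15 with the atrial covariate, 5 without the 3 Sham arrays and 4 to 34 with 1 array left out (5 without CXCR5-/- AB replicate 2, 4 without 3, 34 without 4). Between CXCR5-/- Sham and WT Sham hearts the 8 became 39 with array weights, 1 without the 3 Sham arrays and 3 to 8 with 1 array left out (4 and 3 without CXCR5-/- Sham replicate 2 or 3, and 3, 5 and 3 without WT Sham replicate 1, 2 or 3). In these comparisons between genotypes none of the settings added a call among the 10 genes.

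The replicate block paired arrays by number. It moved the 9 genes between CXCR5-/- AB and WT AB hearts to 21, called Nkx2-5 in the mean response (-0.37, adjusted p 0.0111) and Mef2a in CXCR5-/- hearts (-0.28, adjusted p 0.0464), turned Gata4 in WT hearts to -0.0556 and Hand2 in the mean response to 0.0292, and changed no other call of the 10. Pairing by number was not shown for any of these comparisons.

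Signs turned, always without a call, as follows. With array weights they were -0.0098 (Gata4) and -0.0193 (Hand2) for AB in WT hearts, 0.0715 (Nkx2-5) for the difference of responses, and 0.0053 (Mef2d) and -0.0083 (Hand2) for CXCR5-/- AB against WT AB hearts. With median scaling Gata4 was -0.0091 for AB in WT hearts, and with quantile normalization Mef2d was -0.02 for the difference of responses. With the atrial covariate they were 0.0221 (Mef2d, AB in CXCR5-/- hearts), 0.0122 (Gata4, mean response), 0.0391 (Nkx2-5, difference of responses), -0.0167 (Nkx2-5, CXCR5-/- AB against WT AB hearts), and for CXCR5-/- Sham against WT Sham hearts -0.0166 (Gata4), -0.0558 (Nkx2-5) and -0.0022 (Tbx20). Without the 3 Sham arrays they were -0.0453 (Gata4, AB in WT hearts), 0.0065 (Hand2, mean response), 0.0198 (Gata4), 0.0993 (Nkx2-5) and 0.0085 (Tbx5) for the difference of responses, and -0.073 (Gata4), -0.0586 (Gata6), 0.0407 (Mef2a), -0.0677 (Nkx2-5) and -0.0205 (Tbx20) for CXCR5-/- Sham against WT Sham hearts.

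With 1 array left out, signs turned in 60 of 840 refits, again without a call. For AB in CXCR5-/- hearts the ranges were Gata4 -0.0901 to 9e-04 and Mef2d -0.1564 to 0.0318. For AB in WT hearts the ranges were Gata4 -0.0998 to 0.1252, Mef2c -0.0827 to 0.0412 and Mef2d -0.1491 to 0.0155. For the mean AB response the ranges were Gata4 -0.0754 to 0.0371 and Hand2 -0.0487 to 0.0368. For the difference of responses the ranges were Gata4 -0.1762 to 0.0488, Mef2d -0.0928 to 0.1042, Nkx2-5 -0.1858 to 0.1265, Tbx5 -0.1479 to 0.0214 and Rcan1 -0.0141 to 0.1917. For CXCR5-/- AB against WT AB hearts the ranges were Gata4 -0.1574 to 0.0675, Mef2a -0.0011 to 0.122, Mef2c -0.0418 to 0.1045, Mef2d -0.1377 to 0.0512, Nkx2-5 -0.1344 to 0.1779, Hand2 -0.0472 to 0.0869 and Rcan1 -0.1144 to 0.0648. For CXCR5-/- Sham against WT Sham hearts the ranges were Gata4 -0.0475 to 0.0893, Gata6 -0.0536 to 0.0913, Mef2a -0.1403 to 0.0388, Mef2d -0.1303 to 0.0198, Nkx2-5 -0.0277 to 0.1324 and Tbx20 -0.013 to 0.0994.

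Of the 21 named list genes, 4 lost their call in the mean response without the 3 Sham arrays (Mrtfa, Ppp3cc, Hdac5 and Map2k6) and Ppp3ca with single Sham arrays left out, and none changed sign there. With 3 or 4 hearts a group and a median residual SD of 0.148, differences between genotypes within the intervals given are not resolved.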
